A study of Arabidopsis with 12 samples.

Results

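The genes described here encode the small subunit of Rubisco and a set of Calvin cycle enzymes: RBCS1A, RBCS1B, RBCS2B, RBCS3B, RCA, PRK, GAPA1, GAPA2, GAPB and SBPASE. They are 10 of the 28693 loci of an RNA sequencing table of Arabidopsis thaliana, and were taken from it by gene identifier, with earlier results of these data known. Each identifier stood on 1 locus of its own, so no choice between loci was needed, and all 10 passed the filter on low values.

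The study compared 4 groups of Arabidopsis seedlings with 3 libraries each: pad4 labelled -Fe, pad4 labelled +Fe, wild type (Col-0) labelled -Fe and wild type labelled +Fe. pad4 is mutant in PHYTOALEXIN DEFICIENT 4, a lipase-like protein needed for salicylic acid signalling in defence, and its allele is not given in the sources used here. Per the labels, all groups grew on Murashige and Skoog medium with 0.75% agar at 24 °C under 140 μmol photons per m2 and s with 16 h of light and 8 h of dark, and the Fe treatments lasted 7 d. No label says whether the 3 libraries of a group came from separate batches of plants, so p-values measure the spread between these libraries, which may be technical.

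In the Calvin cycle, Rubisco joins carbon dioxide to ribulose bisphosphate, the products are reduced to triose phosphates, and the acceptor is then rebuilt. Rubisco consists of large subunits encoded in the chloroplast genome and small subunits encoded by a nuclear RBCS family, and its sites are cleared of inhibitory sugar phosphates by the ATP-driven enzyme Rubisco activase. Several of the enzymes depend on light through thioredoxins, and transcripts of the cycle are among the most abundant of green tissue.

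The Fe labels ran against the Fe-status genes. bHLH100, a transcription factor gene induced by Fe deficiency, lay at 0.122 to 0.666 FPKM in the 6 libraries labelled -Fe, against 976 to 1137 FPKM in the 6 labelled +Fe. FPKM are fragments scaled to the length of the gene and to the number of mapped fragments. FER1, a ferritin gene induced by Fe, lay at 271 to 333 FPKM in libraries labelled -Fe and at 10.3 to 11.8 FPKM in libraries labelled +Fe. All Fe comparisons below are therefore between libraries by their label, and a direction such as "higher in libraries labelled -Fe" says nothing of which plants lacked Fe. PAD4 lay at 10.3 to 13.6 FPKM in the 6 pad4 libraries and at 18.1 to 22.0 FPKM in the 6 wild-type libraries.

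The depth of the libraries, relative to the deepest, was 0.568 to 1.00 as read from the steps of the FPKM, and no read totals were used here. In each group, the library furthest out along the main axis of deviations from the group means over all loci was set apart, by rule 1 per group. These 4 libraries that stand apart were pad4 -Fe replicate 3, pad4 +Fe replicate 2, wild-type -Fe replicate 2 and wild-type +Fe replicate 2. All of them lay on the same side of that axis. Their deviations from the group means correlated with each other at 0.411 to 0.511 over all loci tested. The libraries were picked by these same deviations, so the correlations follow in part from the choice and are not separate evidence. The counts of called genes among the 10 and among the related lists are given with and without these 4 libraries. Leaving them out lowers the spread within groups by the way they were chosen, so calls gained without them are not separate evidence. The tissue is named differently in different label fields (shoot, leaves and roots, seedlings). The root markers summed to 473 to 534 FPKM in pad4 -Fe, 317 to 334 FPKM in pad4 +Fe, 331 to 360 FPKM in wild-type -Fe and 330 to 338 FPKM in wild-type +Fe libraries. PYK10 alone made up 428 to 486 FPKM of this in pad4 -Fe and 286 to 293 FPKM in pad4 +Fe libraries. Of these 17 markers, 8 passed the filter on low values. In libraries labelled -Fe, 4 of these were called higher and 1 lower in pad4, and 2 were called higher and 2 lower in the wild type. The root hair genes EXPA7 and EXPA18 were at 0.532 FPKM or less in all libraries and listed at 0 in all 3 wild-type +Fe libraries.

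The 10 genes lie on 4 nuclear chromosomes of the TAIR10 build. RBCS1A (AT1G67090) spans 25048158 to 25049424 on chromosome 1. RBCS3B (AT5G38410), RBCS2B (AT5G38420) and RBCS1B (AT5G38430) are neighbours on chromosome 5, at 15377173 to 15378416, 15380945 to 15382035 and 15384117 to 15385247. These small-subunit genes are near-identical copies, so the counting could have split shared reads among them, and their separate values are less certain than their sum. RCA (AT2G39730) lies on chromosome 2 at 16570746 to 16573548. On chromosome 1 lie GAPA2 (AT1G12900) at 4392450 to 4394400, PRK (AT1G32060) at 11532533 to 11534639 and GAPB (AT1G42970) at 16127381 to 16129843. GAPA1 (AT3G26650) and SBPASE (AT3G55800) lie on chromosome 3, at 9795071 to 9797045 and 20709386 to 20711640. GAPA1 and GAPA2 are also close copies of each other.

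In pad4, 9 of the 10 genes were higher in libraries labelled -Fe than in libraries labelled +Fe, and only RCA was not called (limma, Benjamini-Hochberg adjusted p under 0.05). Over all 20173 loci tested, 26.3% were called higher and 31% lower in that comparison. The median log2 difference of the 10 genes was 1.13, against -0.0488 over all loci tested. In the wild type, 8 of the 10 were higher in libraries labelled -Fe, where 25.2% of all loci were called higher and 26.7% lower, and the medians were 0.586 for the 10 genes and -0.019 for all loci. RCA and PRK were not called there, and PRK was called with scaling to the FPKM sum without the 10 genes (log2 difference 0.26, limma adjusted p = 0.02). Log2 differences are on the log2(FPKM + 1) scale throughout.

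The small-subunit genes had the highest levels of the 10 next to RCA. RBCS1A had 14763, 16850 and 10437 FPKM in the pad4 -Fe libraries and 7033, 5127 and 7109 FPKM in the pad4 +Fe libraries. Wild-type levels were 12476, 8180 and 11188 FPKM in -Fe libraries and 7182, 5557 and 7139 FPKM in +Fe libraries. All libraries labelled -Fe lay above all labelled +Fe of either genotype. The log2 difference was 1.11 ± 0.23 (SE, limma adjusted p = 0.0016) in pad4 and 0.67 ± 0.23 (SE, limma adjusted p = 0.0296) in the wild type. Under quantile normalization neither was called, at 0.18 in pad4 (limma adjusted p = 0.263) and 0 in the wild type.

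RBCS2B had 5327, 5210 and 4258 FPKM in pad4 -Fe libraries, against 1671, 1286 and 1708 FPKM in pad4 +Fe libraries. Its wild-type values were 3647, 2882 and 3264 FPKM in -Fe libraries and 1670, 1367 and 1589 FPKM in +Fe libraries. Its log2 difference was 1.67 ± 0.15 (SE, limma adjusted p = 2.88e-06) in pad4, the largest of the 10 genes in that genotype. The wild-type difference was 1.08 ± 0.15 (SE; limma, adjusted p = 9.15e-05), and neither pair of groups overlapped.

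RBCS3B had 8204, 7726 and 5534 FPKM in pad4 -Fe libraries and 2487, 1854 and 2519 FPKM in pad4 +Fe libraries. The wild-type libraries had 5798, 3757 and 4995 FPKM in -Fe libraries, against 2360, 1728 and 2299 FPKM in +Fe libraries. The log2 differences were 1.64 ± 0.21 (SE, limma adjusted p = 5.72e-05) in pad4 and 1.18 ± 0.21 (SE, limma adjusted p = 0.000696) in the wild type. The wild-type difference was the largest of the 10 in that genotype, and the groups did not overlap in either genotype.

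RBCS1B, the lowest of the small-subunit genes in every group, had 3526, 3214 and 2668 FPKM in pad4 -Fe libraries, against 1546, 1043 and 1537 FPKM in pad4 +Fe libraries. Its wild-type levels were 2664, 1741 and 2363 FPKM in -Fe libraries and 1723, 1194 and 1612 FPKM in +Fe libraries. The lowest wild-type -Fe library lay just above the highest wild-type +Fe library. RBCS1B differed by a log2 of 1.20 ± 0.21 (SE, limma adjusted p = 0.00053) in pad4 and 0.57 ± 0.21 (SE, limma adjusted p = 0.0394) in the wild type.

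RCA encodes Rubisco activase. It had 6805, 6058 and 6402 FPKM in pad4 -Fe libraries, 5525, 5712 and 5676 FPKM in pad4 +Fe libraries, 5939, 5805 and 5138 FPKM in wild-type -Fe libraries and 5140, 5216 and 5063 FPKM in wild-type +Fe libraries. The pad4 groups did not overlap, and the wild-type groups did. The log2 difference was 0.19 in pad4 (95% interval -0.05 to 0.42, limma adjusted p = 0.155) and 0.13 in the wild type (95% interval -0.11 to 0.36, limma adjusted p = 0.339). In pad4 this interval lay below that of each small-subunit gene. In the wild type it lay below those of RBCS2B and RBCS3B. It overlapped those of RBCS1A (0.16 to 1.17) and RBCS1B (0.11 to 1.04) there. RCA was not tested against these genes. The sign for RCA between the Fe labels turned under quantile normalization and under no other scaling. With it, RCA was lower in libraries labelled -Fe in pad4, at a log2 difference of -0.47 (limma, adjusted p = 0.0143). RCA held ranks 2 to 5 among all loci of a library. Quantile normalization sets a value by its rank alone, so that sign reflects changes of rank among the top loci. Without the variance trend RCA was called higher in libraries labelled -Fe in pad4 (limma, adjusted p = 0.049).

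The reduction of the Rubisco product is carried out by the chloroplast glyceraldehyde phosphate dehydrogenase, built from A subunits (GAPA1, GAPA2) and B subunits (GAPB). GAPA1 had 1452, 1263 and 975 FPKM in pad4 -Fe libraries and 640, 445 and 576 FPKM in pad4 +Fe libraries. The wild type had 885, 630 and 922 FPKM in -Fe libraries and 594, 427 and 583 FPKM in +Fe libraries. The log2 difference was 1.15 ± 0.20 (SE, limma adjusted p = 0.000596) in pad4 and 0.60 ± 0.20 (SE, limma adjusted p = 0.029) in the wild type, with no overlap in either.

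GAPA2 had 940, 936 and 668 FPKM in pad4 -Fe libraries, against 373, 316 and 357 FPKM in pad4 +Fe libraries. The wild type had 585, 445 and 613 FPKM in -Fe libraries, against 342, 280 and 343 FPKM in +Fe libraries. All libraries labelled -Fe lay above all labelled +Fe. GAPA2 differed by a log2 of 1.27 ± 0.16 (SE, limma adjusted p = 4.34e-05) in pad4 and 0.76 ± 0.16 (SE, limma adjusted p = 0.00188) in the wild type.

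GAPB had 1000, 912 and 772 FPKM in pad4 -Fe libraries and 584, 545 and 564 FPKM in pad4 +Fe libraries. Wild-type levels were 747, 625 and 729 FPKM in -Fe libraries and 565, 501 and 558 FPKM in +Fe libraries. GAPB differed by a log2 of 0.66 ± 0.11 (SE, limma adjusted p = 0.000303) in pad4 and 0.37 ± 0.11 (SE, limma adjusted p = 0.0127) in the wild type. The ratio of summed A-subunit to B-subunit FPKM was 2.31 ± 0.16 in pad4 -Fe, 1.59 ± 0.18 in pad4 +Fe, 1.93 ± 0.19 in wild-type -Fe and 1.57 ± 0.14 in wild-type +Fe libraries (SD, n = 3 each). It did not overlap between the Fe labels in either genotype.

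SBPASE and PRK act in the rebuilding of the acceptor: sedoheptulose bisphosphatase removes a phosphate from a C7 sugar, and phosphoribulokinase makes ribulose bisphosphate. SBPASE had 727, 696 and 734 FPKM in pad4 -Fe libraries, 474, 487 and 512 FPKM in pad4 +Fe libraries, 552, 561 and 551 FPKM in wild-type -Fe libraries and 436, 448 and 450 FPKM in wild-type +Fe libraries. Its coefficient of variation was 1.04 to 3.99% over the 4 groups. SBPASE differed by a log2 of 0.55 ± 0.06 (SE, limma adjusted p = 1.78e-05) in pad4 and 0.32 ± 0.06 (SE, limma adjusted p = 0.00108) in the wild type.

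PRK had 1166, 1097 and 1202 FPKM in pad4 -Fe libraries and 736, 815 and 805 FPKM in pad4 +Fe libraries. In the wild type it had 722, 808 and 700 FPKM in -Fe libraries and 651, 689 and 637 FPKM in +Fe libraries. The log2 difference was 0.56 ± 0.08 (SE, limma adjusted p = 0.000145) in pad4. For the wild type it was 0.17 (95% interval -0.01 to 0.35, limma adjusted p = 0.0999), although all wild-type -Fe libraries lay above all wild-type +Fe libraries.

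**Figure D1:**
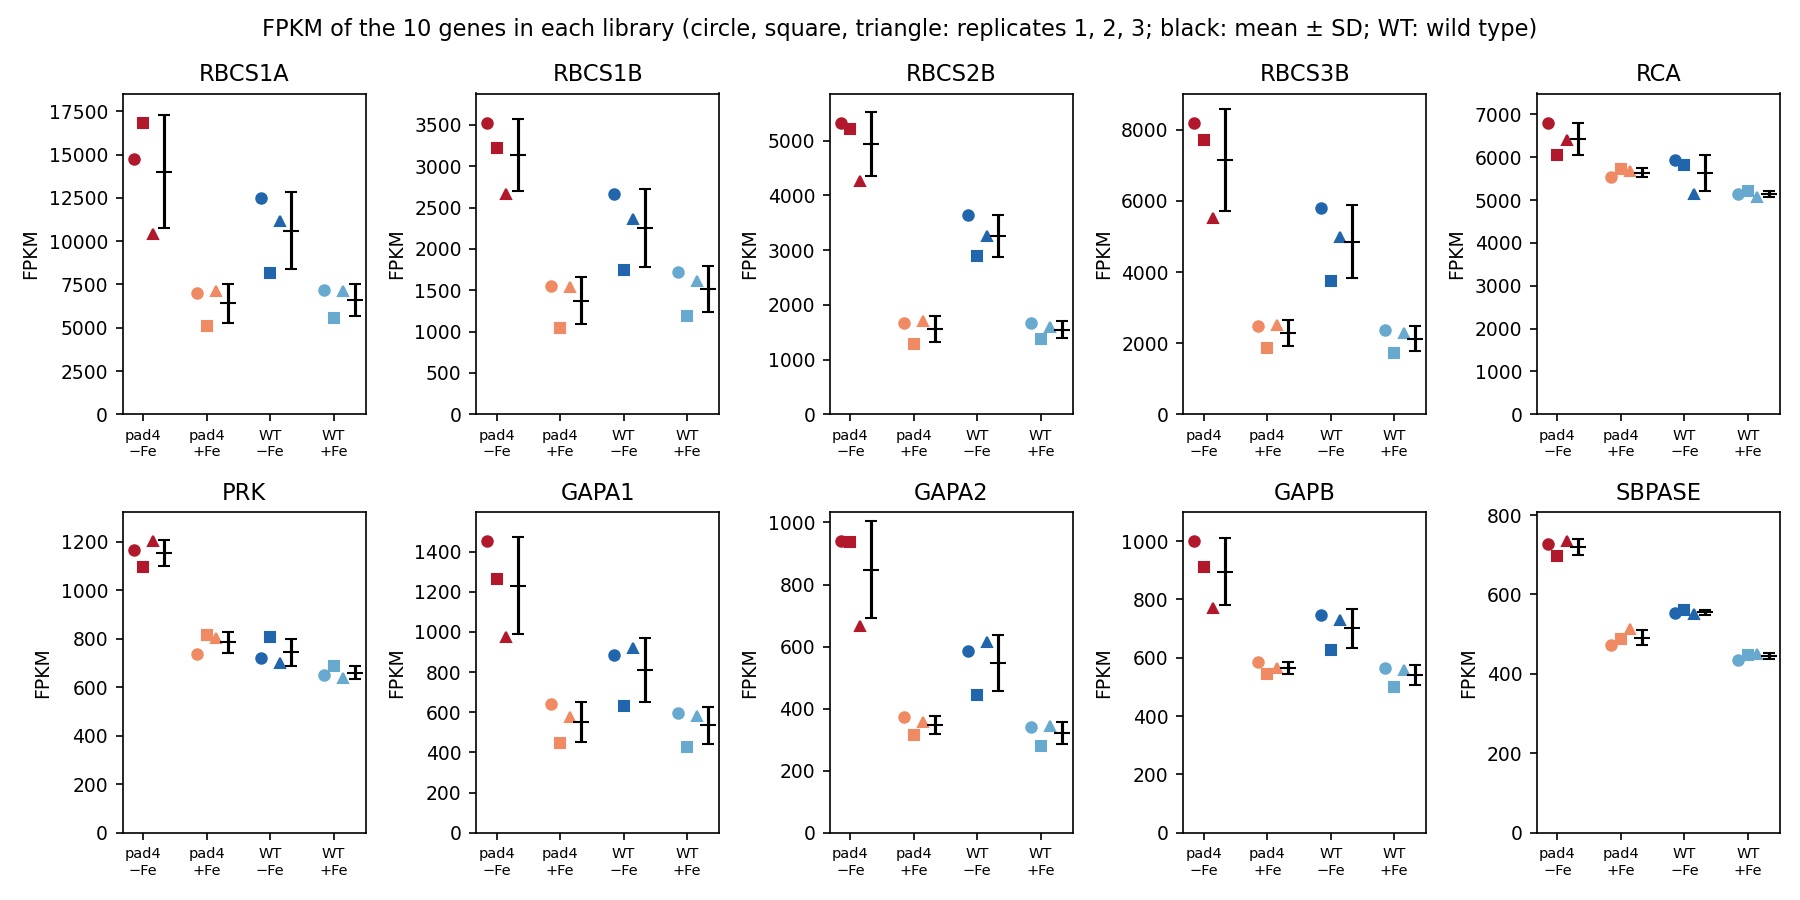
FPKM of the 10 genes in each of the 12 libraries (y axes, starting at 0 and differing in range) by group (x axes, pad4 -Fe, pad4 +Fe, wild-type -Fe and wild-type +Fe). Symbols are libraries and the black bar is the mean ± SD of 3. RBCS1A in pad4 -Fe reaches 10437 to 16850 FPKM, above its 5127 to 7109 FPKM in pad4 +Fe, while RCA stays within 5063 to 6805 FPKM over all libraries.

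In 10 of the 10 genes all 3 pad4 -Fe libraries lay above all 3 pad4 +Fe libraries, where 28.2% of all loci tested did so. In the wild type this held for 9 of the 10, RCA being the exception, where 28.8% of all loci did so. Without the 4 libraries that stand apart, 9 genes were called in pad4 and 8 in the wild type. In that fit 5516 loci were called higher and 6729 lower in libraries labelled -Fe in pad4, against 5311 and 6261 with all libraries. For the wild type it was 5314 higher and 5795 lower, against 5082 and 5393. No call in pad4 was lost on leaving out a library, and several in the wild type were. The calls of RBCS1A, RBCS1B and GAPA1 in the wild type were each lost on leaving out wild-type -Fe replicate 1 (limma adjusted p = 0.111, 0.142 and 0.0928), wild-type -Fe replicate 3 (0.0834, 0.104 and 0.102) or wild-type +Fe replicate 2 (0.107, 0.149 and 0.113). That of RBCS1B was also lost without wild-type +Fe replicate 3 (limma adjusted p = 0.058). That of GAPB was lost without wild-type -Fe replicate 1 (limma adjusted p = 0.0526) or wild-type +Fe replicate 2 (0.0516).

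Marker genes of tissues also differed between the Fe labels. The leaf markers, 5 of 7 with a locus of their own, summed to 13263 to 16227 FPKM in pad4 -Fe, 5865 to 6243 FPKM in pad4 +Fe, 10363 to 11430 FPKM in wild-type -Fe and 5062 to 5621 FPKM in wild-type +Fe libraries. In bulk samples, fewer cells of a type and less RNA per cell cannot be told apart. The part of leaf and root content in these differences was not tested. In the authors' deposited tables, q-values under 0.05 were given for 9 of the 10 genes in pad4 and 8 in the wild type. RCA, with PRK in the wild type, was again outside. The share of all loci with such q-values was not computed, so these counts have no background beside them.

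**Figure D2:**
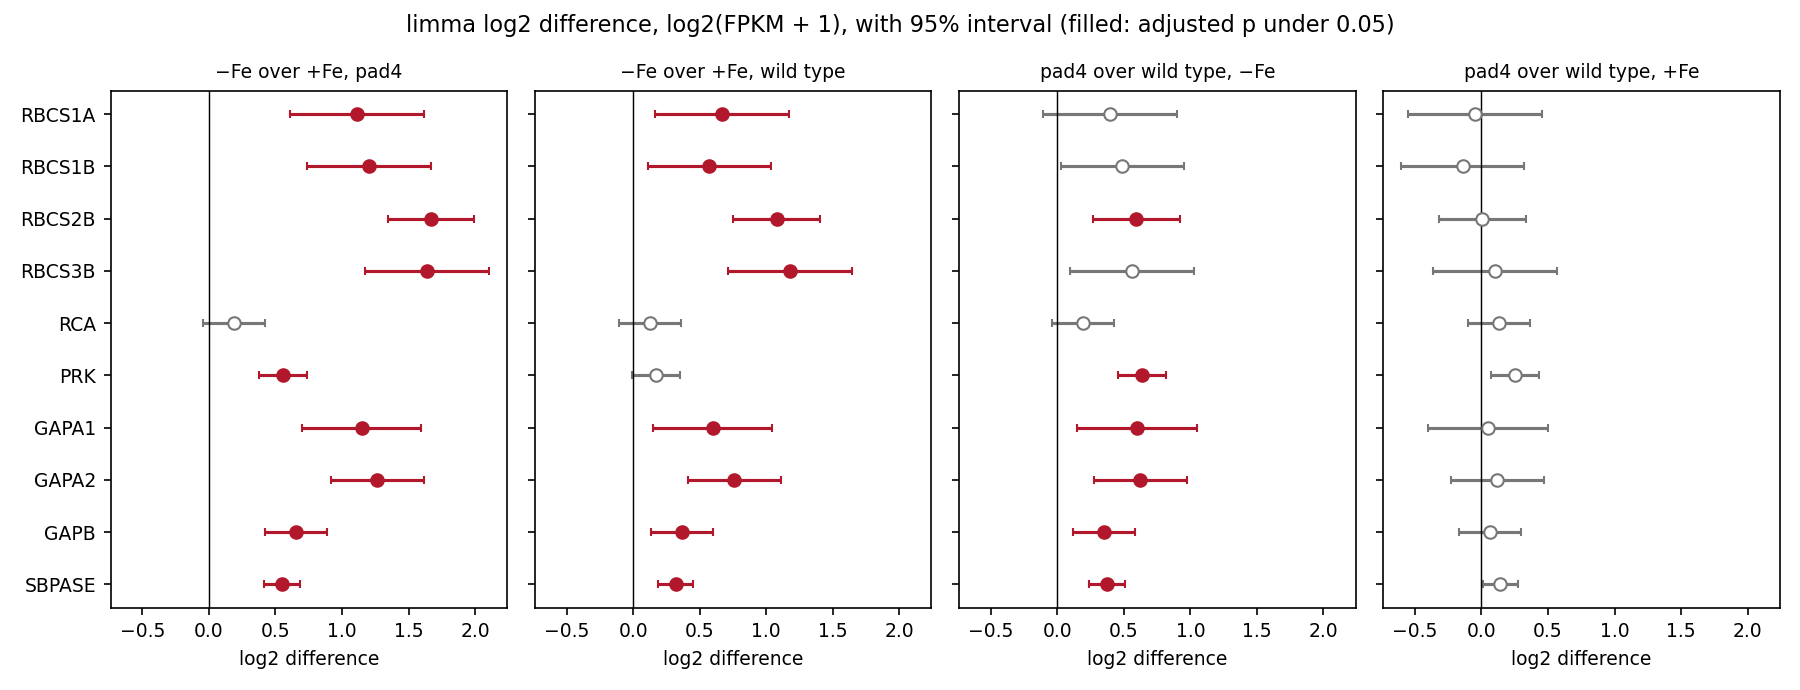
Log2 difference of each of the 10 genes (rows) with its 95% interval from limma (x axes, log2(FPKM + 1) scale) for libraries labelled -Fe over +Fe in pad4 and in the wild type, and for pad4 over wild type in libraries labelled -Fe and +Fe. Filled points are called: 9, 8, 6 and 0 of the 10. RBCS2B reaches 1.67 in pad4 and RCA 0.19.

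Next, pad4 was compared with the wild type within each Fe label. In libraries labelled -Fe, 6 of the 10 genes were higher in pad4, where 13.5% of all loci tested were called higher and 14.4% lower. The median log2 difference of the 10 was 0.525, against 0.00709 over all loci. These comparisons share their pad4 -Fe and wild-type -Fe libraries with the Fe comparisons above. PRK was higher in pad4 by 0.64 ± 0.08 (SE, limma adjusted p = 0.000146) and SBPASE by 0.37 ± 0.06 (SE, limma adjusted p = 0.000844). For PRK the lowest pad4 library, at 1097 FPKM, lay above the highest wild-type library, at 808 FPKM.

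RBCS2B was higher by 0.59 ± 0.15 (SE, limma adjusted p = 0.0109) and was the only called small-subunit gene. This call was lost under quantile normalization (log2 difference 0.14, limma adjusted p = 0.612), without the low-value filter (0.127) and with only the compared groups in the fit (0.0614). GAPA2 was higher by 0.62 ± 0.16 (SE, limma adjusted p = 0.0121), GAPB by 0.35 ± 0.11 (SE, limma adjusted p = 0.03) and GAPA1 by 0.60 ± 0.20 (SE, limma adjusted p = 0.0487). The call of GAPA1 was lost on leaving out any library of either group except pad4 -Fe replicate 3 (limma adjusted p = 0.0503 to 0.165). It was also lost without the variance trend (0.0509), without the low-value filter (0.105), and under median-ratio scaling (0.0516) or quantile normalization (0.077). That of GAPB was lost without pad4 -Fe replicate 1 (limma adjusted p = 0.102), pad4 -Fe replicate 2 (0.0802) or wild-type -Fe replicate 2 (0.107), and without the filter (0.0516). With only the compared groups in the fit, GAPA1 (limma adjusted p = 0.0924), GAPA2 (0.06) and GAPB (0.125) were not called. RBCS1A, RBCS1B, RBCS3B and RCA were not called. Their log2 differences were 0.40 (95% interval -0.11 to 0.90) for RBCS1A, 0.49 (0.02 to 0.95) for RBCS1B, 0.56 (0.10 to 1.03) for RBCS3B and 0.19 (-0.04 to 0.43) for RCA. RBCS3B was called without pad4 -Fe replicate 3 (limma adjusted p = 0.0276), and with the replicate number as a block RBCS1B (0.0351) and RBCS3B (0.0414) were both called.

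The libraries of pad4 lay above those of the wild type without overlap in 8 of the 10 genes, where 18.2% of all loci did so. Without the 4 libraries that stand apart, 8 of the 10 were called higher, RBCS1B and RBCS3B being added, and 3250 loci were called higher against 2726 with all libraries. The authors' deposited table gave q-values under 0.05 for 6 of the 10 genes, and the share of all loci was not computed there. The 6 included RBCS1B (q = 0.0233) and RBCS3B (q = 0.0193) but neither GAPB (q = 0.0928) nor SBPASE (q = 0.0683). Seed storage markers moved with this group: their sum was 73.1 to 89.5 FPKM in pad4 -Fe libraries, and at most 0.91 FPKM in any other library. In pad4 -Fe, 5 of the 6 averaged 1 FPKM or more. Their part in the differences was not tested.

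In libraries labelled +Fe, none of the 10 genes was called between pad4 and wild type, where limma called 9.35% of all loci tested in either direction, 3.69% higher and 5.66% lower. At an unadjusted p under 0.05, 2 of the 10 passed in limma, against 23.4% of all loci. The authors' deposited table gave a q-value under 0.05 for 0 of the 10, and the share of all loci was not computed there. The log2 differences ran between -0.14 for RBCS1B (95% interval -0.60 to 0.32) and 0.25 for PRK (95% interval 0.07 to 0.43, limma adjusted p = 0.0835). The 3 pad4 libraries lay above the 3 wild-type libraries in 3 genes, where 15.7% of all loci did so. These were RCA, PRK and SBPASE, named after their values were seen. Without the 4 libraries that stand apart, PRK was called higher in pad4 by 0.26 (limma adjusted p = 0.0486). In that fit 1528 loci were called higher, against 745 with all libraries.

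The difference between the Fe label effects of the genotypes was itself tested, as the pad4 effect minus the wild-type effect. It was above 0 in each of the 10 genes with all libraries, and the share of all loci above 0 was not computed. The median was 0.453 for the 10 genes and -0.0126 over all loci tested. The RBCS genes, GAPA1, GAPA2 and GAPB varied together within groups (deviations correlated at 0.823 to 0.971), so these signs are not separate observations. Only PRK was called, by 0.38 ± 0.12 (SE, limma adjusted p = 0.0468). Of all loci, 7.07% were called higher, 7.58% lower and 14.7% in either direction. At an unadjusted p under 0.05, 4 of the 10 passed, against 28.3% of all loci. The call of PRK was lost on leaving out any library other than pad4 -Fe replicate 2 or wild-type -Fe replicate 2 (limma adjusted p = 0.059 to 0.108), and with the replicate number as a block (0.0591). For RBCS2B the difference was 0.59 (95% interval 0.13 to 1.05, limma adjusted p = 0.0881), and for RCA it was 0.06 (95% interval -0.27 to 0.39). Without the 4 libraries that stand apart, 6 genes were called, namely PRK, RBCS1B, RBCS2B, GAPA1, GAPA2 and GAPB. In that fit 1974 loci were called higher, against 1427 with all libraries. Those libraries were chosen for their deviation, so leaving them out lowers the spread within groups by construction.

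The order of levels was nearly the same in all groups. FPKM is a level per length of gene, so levels can be set beside each other between genes. RBCS1A was the highest of the 10 in each group by its mean. RCA came next in pad4 +Fe, wild-type -Fe and wild-type +Fe libraries, and in pad4 -Fe libraries RBCS3B averaged 7154 ± 1424 FPKM and RCA 6421 ± 374 FPKM (SD, n = 3), with overlapping ranges. RCA also overlapped RBCS1A in pad4 +Fe and RBCS3B in wild-type -Fe. RBCS3B, RBCS2B and RBCS1B kept their order in each group, although RBCS2B and RBCS1B overlapped in both groups labelled +Fe. The lowest mean was that of SBPASE in pad4 -Fe (719 ± 20.3 FPKM) and of GAPA2 in pad4 +Fe (348 ± 29.5 FPKM), wild-type -Fe (548 ± 90.1 FPKM) and wild-type +Fe (321 ± 36.2 FPKM), each as SD with n = 3. GAPA1 averaged above PRK in both groups labelled -Fe and below it in both labelled +Fe, and its range overlapped that of PRK in both groups labelled -Fe. GAPA2 overlapped SBPASE in both groups labelled -Fe, and GAPA2 overlapped GAPB in pad4 -Fe.

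Together the 10 genes held 3.71 to 4.86% of a library's summed FPKM in pad4 -Fe, 1.95 to 2.25% in pad4 +Fe, 2.74 to 3.70% in wild-type -Fe and 1.80 to 2.16% in wild-type +Fe. The summed small-subunit level was 29238 ± 5524 FPKM in pad4 -Fe, 11640 ± 2020 FPKM in pad4 +Fe, 20985 ± 4076 FPKM in wild-type -Fe and 11807 ± 1705 FPKM in wild-type +Fe (SD, n = 3 each). Divided by RCA in the same library, the sum was 4.57 ± 0.94 in pad4 -Fe, 2.07 ± 0.38 in pad4 +Fe, 3.75 ± 0.78 in wild-type -Fe and 2.30 ± 0.36 in wild-type +Fe. This ratio did not overlap between the Fe labels in either genotype.

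The make-up of the small-subunit pool differed with the Fe label. RBCS1A took 47.7 ± 3.0% of the summed small-subunit FPKM in pad4 -Fe, 55.2 ± 0.1% in pad4 +Fe, 50.5 ± 1.0% in wild-type -Fe and 56.1 ± 0.5% in wild-type +Fe libraries (SD, n = 3 each). RBCS3B took 24.5 ± 1.2% in pad4 -Fe, 19.7 ± 0.2% in pad4 +Fe, 23.1 ± 0.5% in wild-type -Fe and 18.0 ± 0.4% in wild-type +Fe. RBCS2B took 17.0 ± 1.4% in pad4 -Fe, 13.4 ± 0.4% in pad4 +Fe, 15.7 ± 1.4% in wild-type -Fe and 13.1 ± 0.7% in wild-type +Fe. RBCS1B took 10.8 ± 1.0% in pad4 -Fe, 11.8 ± 0.5% in pad4 +Fe, 10.7 ± 0.2% in wild-type -Fe and 12.7 ± 0.6% in wild-type +Fe. The shares of RBCS1A, RBCS2B and RBCS3B did not overlap between the Fe labels in either genotype, and that of RBCS1B overlapped in pad4.

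The shares were compared by an exact two-sided permutation test that exchanged labels only within a genotype, or within an Fe label for the genotypes. The test has 400 arrangements and a smallest p of 0.005, and its p-values were adjusted over 8 comparisons. The shares of a library add up to the whole, so a lower share of 1 gene raises others. The 8 comparisons are therefore not independent. In libraries labelled -Fe the share of RBCS1A was lower by a mean of -6.58 percentage points (exact p = 0.005, adjusted p = 0.0133). RBCS3B differed by 4.92 points and RBCS2B by 3.13 points, both with the same exact p = 0.005 and adjusted p = 0.0133. RBCS1B differed by -1.47 points (exact p = 0.01, adjusted p = 0.016). Between the genotypes, RBCS3B took a share larger by 1.53 points in pad4 than in the wild type (exact p = 0.01, adjusted p = 0.016). The other genotype differences were -1.89 points for RBCS1A (adjusted exact p = 0.107), -0.44 points for RBCS1B (0.31) and 0.79 points for RBCS2B (0.257). Without pad4 -Fe replicate 2, the library with the highest RBCS1A share of its group, that of RBCS1A was -2.73 points (adjusted exact p = 0.008; 200 arrangements, smallest p 0.005). Reads shared among these copies could move FPKM between them.

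**Figure D3:**
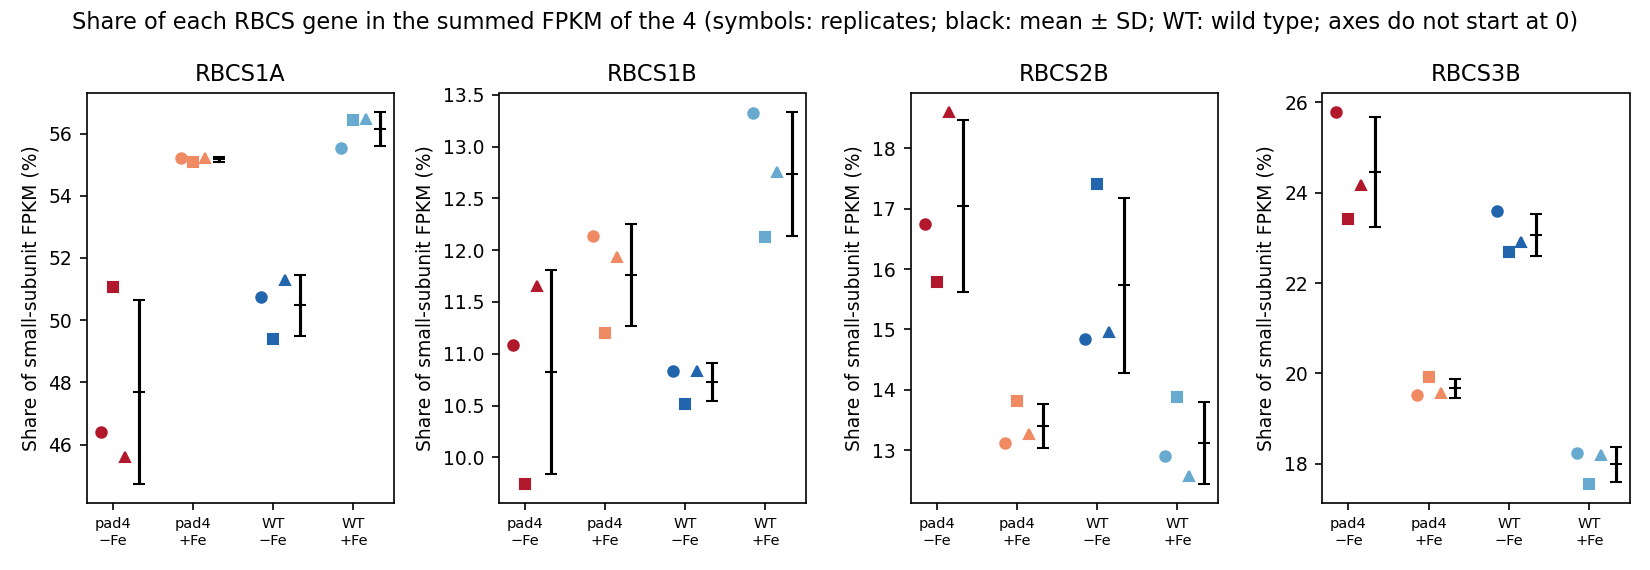
Share of each RBCS gene in the summed FPKM of the 4 (y axes in percent, not starting at 0) by group (x axes). Symbols are libraries and the black bar is the mean ± SD of 3. RBCS1A lies at 45.6 to 51.3% in libraries labelled -Fe and 55.1 to 56.5% in libraries labelled +Fe, and RBCS3B at 22.7 to 25.8% in libraries labelled -Fe and 17.5 to 19.9% in libraries labelled +Fe.

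Within groups, the 10 genes fell into sets that varied in different ways from library to library. This split was seen in the values and is a description, with no test. The RBCS genes, GAPA1, GAPA2 and GAPB had coefficients of variation of 3.46 to 23.3% over the groups, and RCA, PRK and SBPASE had 1.04 to 7.68%. Deviations of log2(FPKM + 1) from the group mean, over the 12 libraries, correlated at 0.823 to 0.971 (Pearson) among these 7 genes and at 0.387 to 0.625 among RCA, PRK and SBPASE. PRK correlated with those 7 at -0.839 to -0.671. The libraries share their depth and total across genes, so these values are not independent.

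Much of this spread lay in the 4 libraries that stand apart. In each of the 4, all 7 genes of the RBCS, GAPA and GAPB set were below both other libraries of the group. The ratio to the mean of those others was 0.66 to 0.776 for RBCS1A, 0.695 to 0.742 for RBCS3B and 0.807 to 0.949 for GAPB. PRK was above both others in all 4, at a ratio of 1.06 to 1.14. RCA (0.995 to 1.05) and SBPASE (0.988 to 1.03) stayed near their groups. Guard cell markers moved with these libraries: FAMA, MYB60 and SLAC1 were above both other libraries in all 4, by a ratio of 1.55 to 1.82 for MYB60, while KAT1 was not above both in any. The guard cell sums were 47.7 to 66.2 FPKM in pad4 -Fe, 61.9 to 88.1 FPKM in pad4 +Fe, 40.2 to 62.3 FPKM in wild-type -Fe and 45.5 to 70.9 FPKM in wild-type +Fe libraries. Their part in the pattern was not tested.

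**Figure D4:**
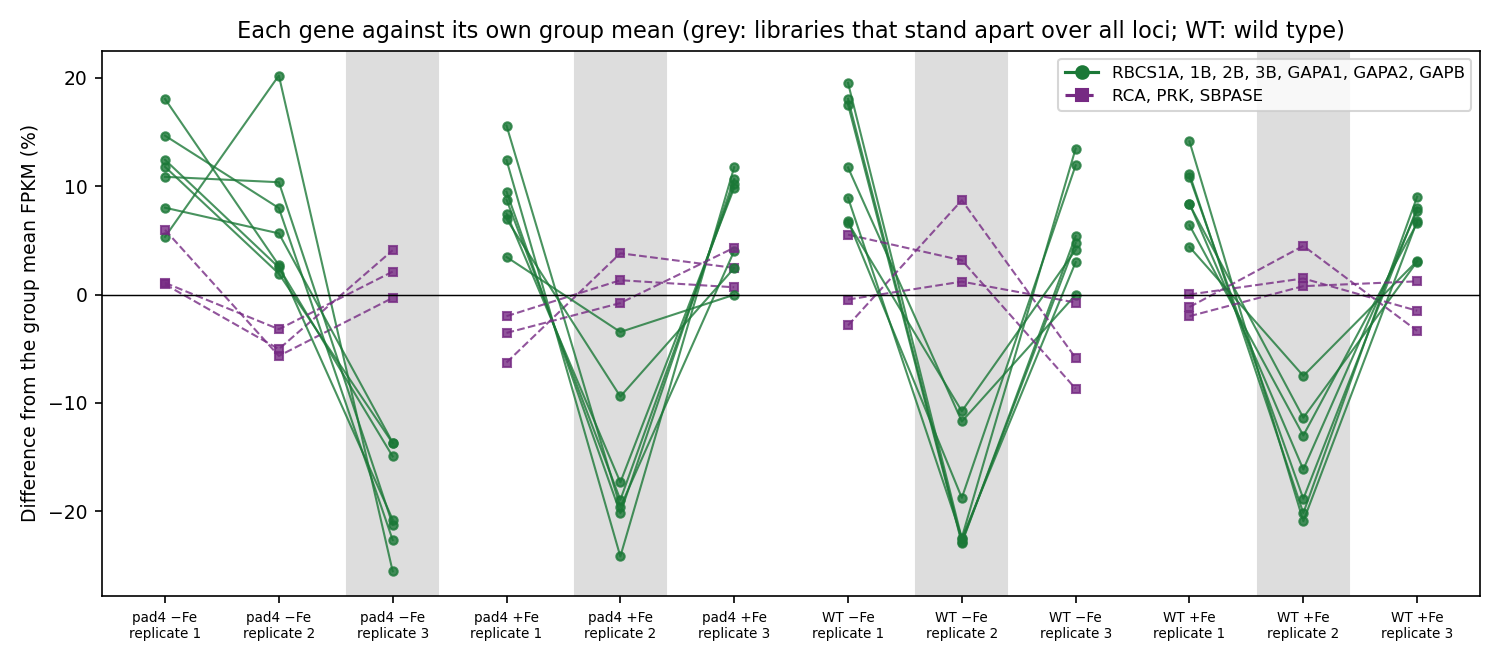
Difference of each gene from its own group mean in percent (y axis) in each library (x axis), with lines joining the libraries of a group. Green circles are RBCS1A, RBCS1B, RBCS2B, RBCS3B, GAPA1, GAPA2 and GAPB, purple squares are RCA, PRK and SBPASE, and grey bands mark the 4 libraries that stand apart. In the grey bands the green genes lie below 0 and PRK above it.

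Over all 12 libraries, the loci whose levels followed a gene most closely were searched among 15094 loci with a mean of at least 5 FPKM, outside the 10. The points share their groups, so these Pearson correlations of log2(FPKM + 1) describe the pattern over groups as well as within them. RBCS1A was closest to CSP41A (0.9885), which encodes a chloroplast RNA-binding protein, to PSBO1 (0.9872), a subunit of the oxygen-evolving complex, and to AT4G01150 (0.9869). RCA was closest to AT5G14920 (0.9645), AT3G21790 (0.9507) and AT5G59410 (0.9476). SBPASE was closest to EMB25 (0.9889), GTE2 (0.9876) and MRL1 (0.9874). MRL1 encodes a protein needed for stable transcripts of the large subunit of Rubisco.

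The other enzymes of the cycle were counted beside the 10. The counts of this list and of the lists below are read against the shares of all loci tested, with all libraries. Between the Fe labels, 26.3% were called higher and 31% lower in pad4, and 25.2% higher and 26.7% lower in the wild type. Between the genotypes, 13.5% were higher and 14.4% lower under the -Fe label, and 3.69% higher and 5.66% lower under the +Fe label. Of 13 listed, 12 had a locus of their own and all of these were tested, and PGK1 lay in a merged locus. In pad4, 9 of the 12 were higher and 0 lower in libraries labelled -Fe, with a median log2 difference of 0.482. For the wild type 7 were higher and 1 was lower, with a median of 0.311. RPE, the ribulose phosphate epimerase, was at 614 FPKM in pad4 -Fe, against 294 FPKM in pad4 +Fe, and at 560 FPKM in wild-type -Fe, against 246 FPKM in wild-type +Fe libraries. Its log2 differences were 1.06 ± 0.08 in pad4 and 1.18 ± 0.08 in the wild type (SE, limma adjusted p = 4.96e-07 and 2.12e-07). RPI3, a ribose phosphate isomerase, rose by 0.89 in pad4 and 0.72 in the wild type, and PGK2, a phosphoglycerate kinase, by 0.82 in pad4 and 0.75 in the wild type.

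RBCL, the chloroplast gene of the large subunit, had 79.2, 157 and 64.6 FPKM in pad4 -Fe libraries and 11.2, 9.30 and 11.7 FPKM in pad4 +Fe libraries. In the wild type it had 268, 15.3 and 32.7 FPKM in -Fe libraries and 14.0, 15.6 and 15.3 FPKM in +Fe libraries. The log2 difference was 3.01 ± 0.77 in pad4 (SE, limma adjusted p = 0.00594) and 1.73 ± 0.77 in the wild type (SE, limma adjusted p = 0.0805), where the groups overlapped and a single library held most of the level. The libraries were made from mRNA per the labels, and chloroplast transcripts largely lack the long poly(A) tails of nuclear ones. Between the genotypes in libraries labelled -Fe, 2 of the 12 enzymes were higher in pad4, near the 13.5% of all loci called higher there. RPI4 was higher in pad4 by 0.41 ± 0.07 (SE, limma adjusted p = 0.0016), and the median of the list was 0.172. In libraries labelled +Fe only TKL2, a transketolase, was called, at 11.4 FPKM in pad4 and 14.2 FPKM in the wild type (limma adjusted p = 0.0401), and the median was 0.00812. That call was lost on leaving out any of the 6 libraries compared. Between the Fe labels, 10 were called higher in pad4 and 8 higher and 1 lower in the wild type without the 4 libraries that stand apart. Between the genotypes it was then 3 higher under the -Fe label, and 1 higher and 2 lower under the +Fe label.

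CP12 proteins tie PRK and the glyceraldehyde phosphate dehydrogenase into an inactive complex in the dark. CP12-2 averaged 592 FPKM in pad4 -Fe, 356 FPKM in pad4 +Fe, 277 FPKM in wild-type -Fe and 307 FPKM in wild-type +Fe libraries. It rose by 0.73 ± 0.08 in pad4 (SE, limma adjusted p = 1.25e-05), and the wild type gave a log2 difference of -0.15 ± 0.08 (SE; adjusted p = 0.132 by limma). Under the -Fe label it was higher in pad4 than in the wild type by 1.09 ± 0.08 (SE, limma adjusted p = 1.5e-06). CP12-1 was higher in libraries labelled -Fe by 0.46 in pad4 and 0.29 in the wild type. CP12-3 was lower there, at 5.79 FPKM in pad4 -Fe, against 13.7 FPKM in pad4 +Fe, and at 6.26 FPKM in wild-type -Fe, against 12.7 FPKM in wild-type +Fe libraries. All 3 were tested, and the list's counts were 2 higher and 1 lower in pad4, and 1 higher and 1 lower in the wild type, with medians of 0.464 and -0.149. Between the genotypes, 2 were higher in pad4 in libraries labelled -Fe and 0 in libraries labelled +Fe, with medians of 0.3 and 0.13. The counts without those 4 libraries were 2 higher and 1 lower between the Fe labels in pad4, 0 higher and 1 lower in the wild type, and 1 higher in pad4 than in the wild type in libraries labelled -Fe.

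Folding and assembly of Rubisco need the chloroplast chaperonin (CPN60 subunits with the co-chaperonin CPN20) and dedicated assembly factors. Of 16 such genes, 15 were tested. In pad4, 10 were higher and 3 lower in libraries labelled -Fe, and in the wild type 10 were higher and 1 lower, with medians of 0.421 and 0.474. CPN60B2, a chaperonin beta subunit, averaged 181 FPKM in pad4 -Fe, 125 FPKM in pad4 +Fe, 567 FPKM in wild-type -Fe and 97.6 FPKM in wild-type +Fe libraries. Its log2 difference between the Fe labels was 0.53 ± 0.11 in pad4 (SE, limma adjusted p = 0.00134) and 2.52 ± 0.11 in the wild type (SE, limma adjusted p = 6.68e-09). CPN60A1, the alpha subunit, averaged 423 FPKM in pad4 -Fe, 356 FPKM in pad4 +Fe, 778 FPKM in wild-type -Fe and 292 FPKM in wild-type +Fe libraries. CPN20 averaged 463 FPKM in pad4 -Fe, 324 FPKM in pad4 +Fe, 622 FPKM in wild-type -Fe and 292 FPKM in wild-type +Fe libraries.

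Between the genotypes, 5 of the 15 were lower and 4 higher in pad4 in libraries labelled -Fe, with a median of 0.0547. The log2 difference of CPN60B2 there was -1.64 ± 0.11 (SE; limma, adjusted p = 6.91e-07). Under the +Fe label, 3 were higher and 0 lower, with a median of 0.167, and CPN60A1 was higher by 0.28 ± 0.08 (SE, limma adjusted p = 0.0392). CPN60B1, another beta subunit, rose by 0.82 in pad4 and by 1.02 in the wild type between the Fe labels. With any 1 of the 6 libraries labelled +Fe left out, 0 or 1 of the 15 was called between the genotypes under that label. Leaving out the 4 libraries that stand apart gave 11 higher and 3 lower between the Fe labels in pad4, and 11 higher and 2 lower in the wild type. Between the genotypes, 5 were then higher and 5 lower under the -Fe label and 4 higher under the +Fe label.

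Photorespiration recovers carbon from the oxygenase reaction of Rubisco. All 19 genes listed were tested. In pad4, 16 were higher and 0 lower in libraries labelled -Fe, with a median log2 difference of 0.743. Of the 19, 8 were higher and 1 lower in the wild type, with a median of 0.287. Between the genotypes, 12 were higher and 0 lower in pad4 in libraries labelled -Fe, with a median of 0.363, and 0 were higher and 2 lower in libraries labelled +Fe, with a median of -0.0552. The interaction was called for 8 of the 19, each above 0, and for 4 to 7 with a library left out. When the 4 libraries that stand apart were left out, 17 were higher in pad4 and 11 higher and 2 lower in the wild type between the Fe labels, 14 were higher between the genotypes under the -Fe label and 3 lower under the +Fe label, and the interaction was called for 12.

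GLDT and GDCH encode subunits of the glycine cleavage system. GLDT averaged 487 FPKM in pad4 -Fe, 198 FPKM in pad4 +Fe, 383 FPKM in wild-type -Fe and 187 FPKM in wild-type +Fe libraries. GDCH averaged 273 FPKM in pad4 -Fe, 111 FPKM in pad4 +Fe, 234 FPKM in wild-type -Fe and 124 FPKM in wild-type +Fe libraries. PLGG1, the plastid exporter of glycolate, rose by 1.24 ± 0.08 in pad4 and 0.70 ± 0.08 in the wild type (SE, limma adjusted p = 2.25e-07 and 2.16e-05). GOX2, a glycolate oxidase, was higher in pad4 than in the wild type by 0.71 ± 0.08 in libraries labelled -Fe (SE, limma adjusted p = 3.84e-05). GOX1, the other glycolate oxidase gene listed, was higher there by 0.41 (limma adjusted p = 0.00179). Its interaction was not called, at 0.28 (limma adjusted p = 0.113). DIT1, a dicarboxylate carrier, was lower in pad4 by -0.39 ± 0.09 in libraries labelled +Fe (SE, limma adjusted p = 0.0176). PGLP1B was higher in libraries labelled -Fe in both genotypes but stayed under 3.1 FPKM in all libraries, and PGLP1A is a near-identical copy of it.

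Thioredoxins of the f and m types carry electrons from ferredoxin, through the ferredoxin-thioredoxin reductase, to enzymes of the cycle such as SBPASE and PRK. Of 9 genes, all tested, 6 were higher and 0 lower in libraries labelled -Fe in pad4, and 4 higher and 0 lower in the wild type, with medians of 0.616 and 0.332. FTRA2, a subunit of the reductase, averaged 112 FPKM in pad4 -Fe, 36.4 FPKM in pad4 +Fe, 97.1 FPKM in wild-type -Fe and 35.9 FPKM in wild-type +Fe libraries. TRXM1 rose by 0.96 in pad4 and 0.73 in the wild type, and TRXM2 by 0.92 in pad4 and 0.60 in the wild type. TRXF1 rose by 1.25 in pad4 (limma adjusted p = 0.00149), and its log2 difference in the wild type was 0.45 (limma adjusted p = 0.158). Between the genotypes 3 were higher in pad4 in libraries labelled -Fe and 1 in libraries labelled +Fe, with medians of 0.284 and 0.0208. TRXF2 was higher in pad4 under both labels, by 0.49 in libraries labelled -Fe and 0.53 in libraries labelled +Fe. Of the 9, 7 were higher in each genotype between the Fe labels without the 4 libraries that stand apart. Between the genotypes, 7 were then higher in pad4 under the -Fe label, and 2 higher and 1 lower under the +Fe label.

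The regulators of photosynthesis genes moved in both directions. All 7 were tested and called between the Fe labels in both genotypes, with 4 higher and 3 lower in libraries labelled -Fe in each, and medians of 0.746 in pad4 and 0.528 in the wild type. GLK1, a transcription factor that activates nuclear photosynthesis genes, averaged 61.9 FPKM in pad4 -Fe, 16.9 FPKM in pad4 +Fe, 87.2 FPKM in wild-type -Fe and 28.1 FPKM in wild-type +Fe libraries. It was lower in pad4 than in the wild type under both labels, by -0.49 ± 0.12 in libraries labelled -Fe (SE; adjusted p = 0.00897 by limma) and -0.70 ± 0.12 in libraries labelled +Fe (SE, limma adjusted p = 0.00358). Between the Fe labels GLK1 was higher in libraries labelled -Fe, by 1.81 in pad4 and 1.59 in the wild type. The median difference of the 10 genes between the genotypes was 0.525 in libraries labelled -Fe and 0.0821 in libraries labelled +Fe. A link between GLK1 and the 10 genes was not tested. GLK2 rose in libraries labelled -Fe by 0.87 in pad4 and 1.04 in the wild type, and the GATA factor gene GNC by 1.26 in pad4 and 1.55 in the wild type.

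HY5, which encodes a light signalling factor, averaged 100.2 FPKM in pad4 -Fe, 183 FPKM in pad4 +Fe, 56.9 FPKM in wild-type -Fe and 139 FPKM in wild-type +Fe libraries, and was called lower in libraries labelled -Fe in both. CGA1, the GATA factor gene most like GNC, was lower in libraries labelled -Fe by -0.22 in pad4 and -0.77 in the wild type. In pad4 it was higher than in the wild type by 0.90 ± 0.07 in libraries labelled -Fe (SE, limma adjusted p = 4.38e-06). Between the genotypes the list had 2 higher and 1 lower under each label, with medians of 0.238 in libraries labelled -Fe and 0.153 in libraries labelled +Fe. In a fit without those 4 libraries, the counts between the Fe labels were again 4 higher and 3 lower in each genotype, and those between the genotypes were 4 higher and 1 lower under the -Fe label and 3 higher and 1 lower under the +Fe label.

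**Figure D5:**
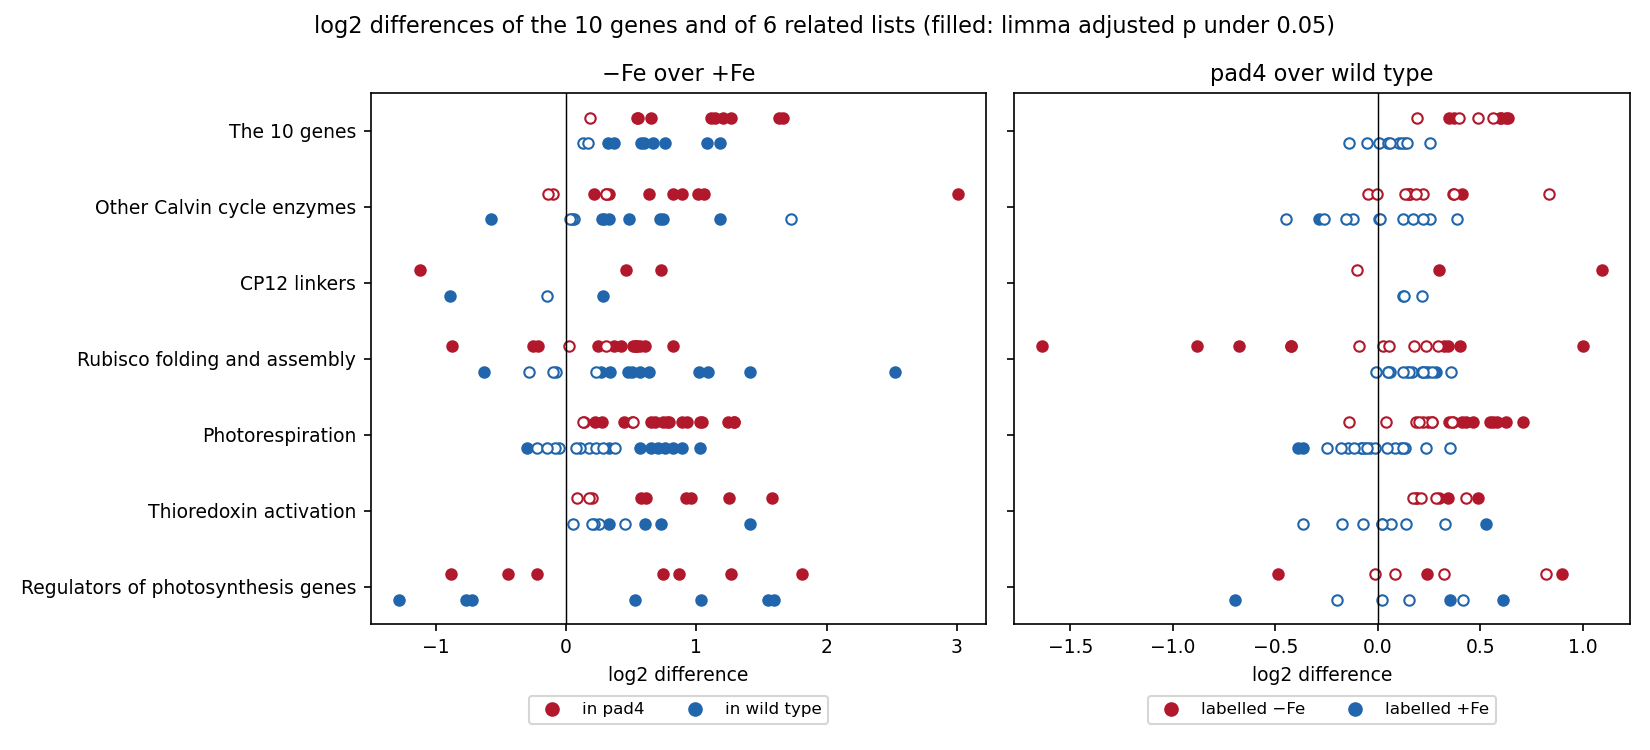
Log2 differences of the 10 genes and of the genes of 6 related lists (x axes, log2(FPKM + 1) scale, 1 point per gene), for libraries labelled -Fe over +Fe in pad4 and wild type (left) and for pad4 over wild type in libraries labelled -Fe and +Fe (right). Filled points are called by limma. In the left panel 16 of 19 photorespiration genes are called higher in pad4 and 8 in the wild type, and in the right panel 5 of the 15 folding and assembly genes are called lower in pad4 in libraries labelled -Fe.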

How the data were processed

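RNA of Arabidopsis seedlings was sequenced in 12 libraries of 4 groups. The authors deposited FPKM for 28693 loci, on TAIR10 per the submitters' processing notes, with no aligner or counting tool given in the sources used here. More than 1 gene is merged in 354 of them. In a further copy of the table the largest difference was 0.005 FPKM, and that copy was not used otherwise. The authors' comparison tables give a log2 fold, a p-value and a q-value, per the file headers, and a test score in those deposited tables was not used. Depth is known only as a ratio between libraries, and no counting intervals were computed.

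The 20173 loci that reached 1 FPKM in 3 libraries or more entered limma 3.58.1 under R 4.3.3 (eBayes, with a trend; checked on simulated data) on log2(FPKM + 1), with all 12 libraries in 1 fit, 5 contrasts and Benjamini-Hochberg adjustment over all loci at 0.05. With 1 added, differences of low genes come out too small. Shares of the small-subunit pool were tested by exact permutation in Python 3.11.15. Identifiers were taken from the table, starts were counted from 1, and 116 of 117 listed identifiers matched the RefSeq gene table, used for names only.

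The genes, the lists and the rule for named genes were chosen with earlier results of these data known. Named are the 10 genes and, per list, up to 4 genes with the largest mean absolute Fe label difference and 1 called gene per genotype comparison. Of the list genes, PGK1, CPN10-2, CAB2 and LHCB2.1 lay in merged loci and were left out. Alternatives were no low-value filter, a pseudocount of 0.1, limma without the trend, quantile normalization, median-ratio scaling, scaling to the FPKM sum without the 10 genes, only the compared groups in the fit, the replicate number as a block, and leaving out each library. Leaving out the 4 libraries that stand apart was added after the data were seen.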

Additional observations from a re-analysis of the deposited data

Results flagged for a closer look

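For 1 of the 10 genes and 10 of the 29 genes named from the 6 related lists, the Fe label effect differed between the genotypes. The call is by the interaction of genotype and Fe label (limma, adjusted p under 0.05), made for 14.7% of all loci tested. The 29 were picked by differences that make up the interaction, so their count cannot be set against that share. Over all genes tested, it was called for 1 of 12 other cycle enzymes, 1 of 3 CP12 genes and 5 of 15 folding and assembly genes. The other lists had 8 of 19 photorespiration genes, 1 of 9 thioredoxin genes and 1 of 7 regulators. Values are the log2 Fe label effect of pad4 less that of the wild type. Among the 10 genes this was PRK, at 0.38 ± 0.12 (SE, limma adjusted p = 0.0468). That call was lost under quantile normalization (limma adjusted p = 0.0614), scaling to the FPKM sum without the 10 genes (0.0924) and the replicate block (0.0591). It was also lost on leaving out any library other than pad4 -Fe replicate 2 or wild-type -Fe replicate 2. Without the low-value filter PRK was not called (limma adjusted p = 0.0608) and SBPASE was (0.0397). The value was above 0 for CP12-2 (0.88), GOX2 (0.60), DIT1 (0.59), PLGG1 (0.54) and TRXM2 (0.32), which were called higher in libraries labelled -Fe in pad4. It was also above 0 for CGA1 (0.55) and TKL2 (0.44), whose log2 differences were below 0 in both genotypes and nearer to 0 in pad4. It was below 0 for the chaperonin genes CPN60B2 (-1.99), CPN60A1 (-1.17) and CPN20 (-0.57), called higher in libraries labelled -Fe in both genotypes. For PRK, CP12-2, GOX2 and DIT1 the Fe label effect was called in pad4 and not in the wild type, and for PRK it was called in the wild type with scaling to the FPKM sum without the 10 genes. For TKL2 it was called in the wild type, where it fell by 0.58, and not in pad4. Marker genes are not in these counts. Among them, the interaction was called above 0 for 5 of the 5 seed markers tested, with a median of 4.01. It was also called above 0 for 2 of 8 root markers and 1 of 5 Fe-status genes, and for 0 of 5 leaf markers. Of the 4 guard cell markers only KAT1 was called, at 0.47 (limma adjusted p = 0.0144).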

How the results depend on the processing

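Between the Fe labels in pad4, all 9 calls held with a pseudocount of 0.1, median-ratio scaling, scaling without the 10 genes, the replicate block and each library left out. Without the low-value filter RBCS1A was not called (limma adjusted p = 0.635 in pad4 and 0.855 in the wild type), with its SE at 1.44 instead of 0.23, and the cause was not tested. Quantile normalization lost its call in pad4 (0.18, limma adjusted p = 0.263) while RCA was called lower. In the wild type, 5 of the 10 were called without the filter and 3 under quantile normalization, and 4 to 8 with a library left out. RBCS1A held rank 2 in all 6 wild-type libraries, so quantile normalization gives it 0 difference by construction. RCA held ranks 2 to 5 over all libraries, so its values there are likewise set by rank. Quantile normalization also turned RCA to -0.47 in pad4, -0.22 in the wild type, -0.075 between genotypes in libraries labelled -Fe and -0.25 in the interaction, and PRK in the wild type to -0.063. Between genotypes in libraries labelled -Fe, 3 of the 10 were called without the filter, 4 under quantile normalization, 2 with only the compared groups and 4 to 7 with a library left out. In libraries labelled +Fe, 1887 loci were called with all libraries, 1026 to 1612 with a library left out and 3151 without the 4 that stand apart, with 1 of the 10. There RBCS2B turned to -0.11 under quantile normalization and -0.0051 under median-ratio scaling. In the interaction, 0 of the 10 were called under quantile normalization, scaling without the 10 genes or the replicate block, 0 to 2 with a library left out and 6 without the 4 that stand apart. Without the low-value filter SBPASE was called there (limma adjusted p = 0.0397) and PRK was not (0.0608).

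Signs that turned on leaving out a library were all of uncalled values. Between genotypes in libraries labelled +Fe, these ran from -0.17 to 0.10 for RBCS1A, -0.30 to 0.047 for RBCS1B, -0.079 to 0.14 for RBCS2B, -0.041 to 0.25 for RBCS3B and -0.10 to 0.20 for GAPA1, and in the interaction from -0.0059 to 0.099 for RCA.

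Without the 4 libraries, the Fe label differences in small-subunit share were -5.73 points for RBCS1A, -1.92 for RBCS1B, 2.61 for RBCS2B and 5.04 for RBCS3B (adjusted exact p = 0.0889 each), and the genotype difference of RBCS3B was 1.34 points (adjusted exact p = 0.148); with 2 libraries a group the exact test cannot go below 0.0556. The genotype difference of RBCS1A was -2.73 to -1.36 points with a library left out.

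The replicate numbers are not shown to pair the libraries: libraries with the same number had correlations of -0.424 to 0.511 between their deviations, and 4 of 12 libraries correlated best with their own number. With the block, 8 of the 10 were called between genotypes in libraries labelled -Fe. Summing loci for an identifier on several loci changed nothing, since each stood on 1. The depth in reads is unknown.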
